A study of Mus musculus with 2 samples.

Results

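The genes described here encode the insulin and insulin-like growth factor (Igf) receptors, their binding proteins and the PI3K, Akt, mTOR and Foxo steps downstream of them. They were 31 genes chosen by name, and their members among the data were the probe sets whose platform annotation names 1 of these genes and no other. Of the 31 genes, 30 had such a probe set, 95 probe sets in all, among 18193 genes named in this way in the whole table. Rps6kb1 had none, so its signal is not analysed here. Each value comes from mouse hematopoietic stem cells (HSC, the bone marrow cells that renew all blood lineages) hybridised to 2 Affymetrix arrays. The first array carries the label SIRT6 knockout and the second the label wild type, and both sets of mice were 3 months old. Sirt6 is a nuclear NAD-dependent deacylase of histones and other proteins. The sources used here do not give the knockout allele, the strain, the markers used to sort the cells or the number of animals behind each RNA.

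Insulin and Igf1 bind receptor tyrosine kinases, which phosphorylate adaptor proteins of the Irs family and so recruit PI3K. The lipid made by PI3K brings Pdpk1 and Akt to the membrane. Akt then relieves the Tsc1-Tsc2 brake on the small GTPase Rheb, which switches on mTOR complex 1 and with it protein synthesis, and Akt keeps Foxo transcription factors out of the nucleus. In HSC, Foxo activity and restrained mTOR activity are known to preserve quiescence. In mouse heart, Sirt6 has been described to act with c-Jun at promoters of Igf signalling genes and to lower their transcription. Much of the pathway is regulated by phosphorylation, which an array of transcripts does not measure.

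A pair of promoters is printed for reference beside the values below. That of Igf2r is shown because Igf2r had the largest difference of all members between the arrays, and that of Irs2 because Irs2 is a textbook target of Foxo factors and its promoter holds an insulin response sequence. Both run 5′ to 3′ on the strand of the gene, from 250 bases before to 50 bases after the transcription start, and were taken from RefSeq (GRCm38.p6). The first is chr17:12769657-12769956 on the minus strand, the second chr8:11008880-11009179 on the minus strand. Capitals mark the E-box CACGTG, a sequence bound by Myc and by Tfeb, the lysosomal regulator that mTOR complex 1 restrains, and in Irs2 also the insulin response sequence TGTTTTG.
Igf2r: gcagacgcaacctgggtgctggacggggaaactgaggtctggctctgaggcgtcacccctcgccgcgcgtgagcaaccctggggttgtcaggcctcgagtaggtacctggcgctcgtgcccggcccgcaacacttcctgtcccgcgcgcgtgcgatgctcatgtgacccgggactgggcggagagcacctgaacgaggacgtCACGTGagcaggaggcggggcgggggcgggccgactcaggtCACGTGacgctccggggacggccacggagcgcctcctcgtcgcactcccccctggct
Irs2: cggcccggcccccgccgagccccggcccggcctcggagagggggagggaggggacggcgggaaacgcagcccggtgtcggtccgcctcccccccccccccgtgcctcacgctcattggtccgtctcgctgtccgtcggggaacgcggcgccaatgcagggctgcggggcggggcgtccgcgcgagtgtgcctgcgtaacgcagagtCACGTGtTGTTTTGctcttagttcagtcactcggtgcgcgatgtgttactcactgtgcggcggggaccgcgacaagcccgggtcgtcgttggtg
In the Igf2r promoter the E-boxes begin 48 and 7 bases upstream of the start. In the Irs2 promoter an E-box begins 44 bases upstream and is followed, after a single t, by the insulin response sequence, which begins 37 bases upstream. Among 34 promoters listed for 26 of the members, CACGTG was found in 4 (11.8%), those of Irs1, Irs2, Rheb and Igf2r, against 7.15% of all 32851 promoters of the same length. The insulin response sequence (CAAAACA, or TGTTTTG on the other strand) lay in 2 (5.88%), those of Irs1 and Irs2, against 6.28%. A forkhead site (GTAAACA, or TGTTTAC) lay in 1, an Akt1 promoter, against 3.65%, and the AP-1 site bound by Jun (TGANTCA, which reads alike on both strands) in 2, those of Pik3ca and Igf1, against 7.81%. The member promoters had a median GC content of 62.3%, against 52.7% over all promoters. These are matches of letters and do not show binding.

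The deposited values are linear signal intensities of the MAS5 kind, 1 per probe set and array. A gene was represented by its brightest probe set, the one with the highest mean log2 signal, and a floor was set at a signal of 60.5, the median over all 45037 probe sets. Genes whose signal passed the floor on either array were taken as measured, and where 1 array fell short of it the ratio was taken to the floor itself, a bound given as "at least". With 1 array per genotype there is no replicate, so no test was made, no value carries a biological error, and every difference compares these RNA samples only. The one spread that could be computed is that between probe sets: log2 ratios of different probe sets for 1 gene had a pooled SD of 0.22. This SD leaves out any error shared by all probe sets of an array, and it can include differences between transcripts of a gene. It serves below as a yardstick only and is not the error of a ratio. The Sirt6 probe set read 174 on the array labelled knockout and 124 in wild type. It was thus not lower where the label says knockout. The sources used here do not say whether it lies inside a deleted stretch, so it is no check of the label, on which each direction below depends. Of the HSC markers listed, 13 of 13 with a probe set were above the floor on both arrays, among them Kit, Cd34, Hlf and Mecom. Of 5 T cell markers, Cd3d, Cd3e, Cd3g and Cd4 lay below it on both and Cd8a above it on both (94.4 and 81.2). Markers of other lineages with a probe set were measured too, 10 of 10 for granulocytes, 7 of 7 erythroid and 6 of 7 for B cells. Passing the floor therefore does not set HSC apart from these lineages.

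Across the pathway, most members read alike on both arrays. Of 30 members, 28 were measured, 27 of them on both arrays. Deptor, an inhibitory subunit of both mTOR complexes, was the 1 member at least 1.5-fold higher on the array labelled knockout, and Igf2r, the receptor that clears Igf2 and sorts lysosomal enzymes, the 1 member at least 1.5-fold lower. Of the 11547 measured genes, 1.71% passed 1.5-fold upward and 2.63% downward, so counts of 1 in each direction among 28 are near the background. That background depends on the floor, with 198 genes higher and 304 lower here but 986 and 693 of 18193 without a floor, where the members still had 1 in each direction. The median log2 ratio of the members, labelled knockout over wild type, was 0.0073, beside 0.0023 over all measured genes. Of the members, 16 were positive and 12 negative, and 50.4% of all measured genes were positive. The quartiles of the members ran from -0.14 to 0.14, and that of all measured genes from -0.13 to 0.13. Of the 28 members, 19 lay within the probe-set SD of 0.22, as did 71.7% of all measured genes. At a log2 ratio of 0.32 or more in size, 2 members were higher (Deptor and Pik3cb) and 2 lower (Igf2r and Tsc1), against 7.26% and 8.56% of all measured genes.

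**Figure D1:**
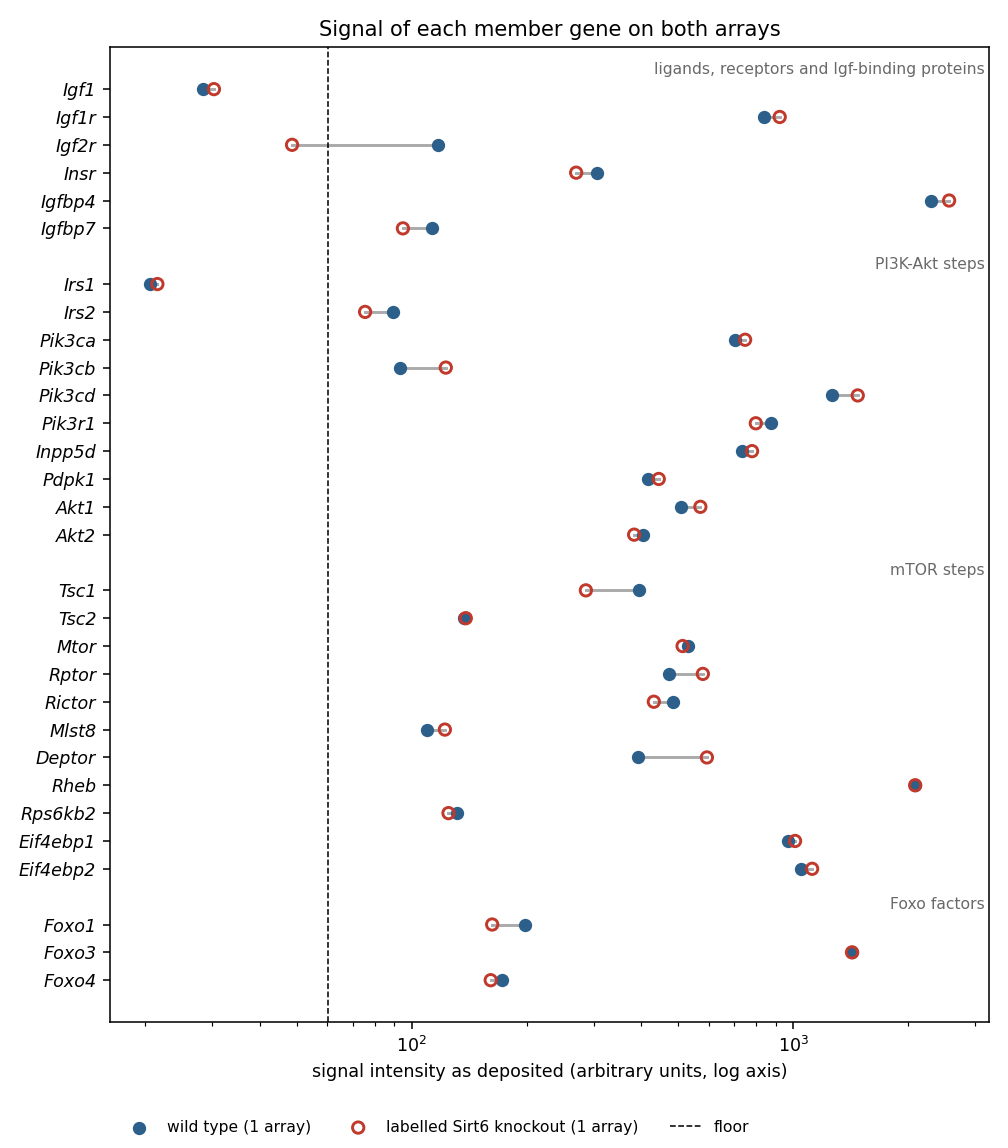
Signal intensity of the brightest probe set of each of the 30 member genes (log axis, arbitrary units) on the wild-type array (filled) and the array labelled Sirt6 knockout (open), 1 array each, ordered by role in the pathway, with the floor of 60.5 dashed. The points of most genes nearly coincide, and those of Igf2r (117 to 48.6), Deptor (393 to 594) and Tsc1 (395 to 286) stand apart.

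**Figure D2:**
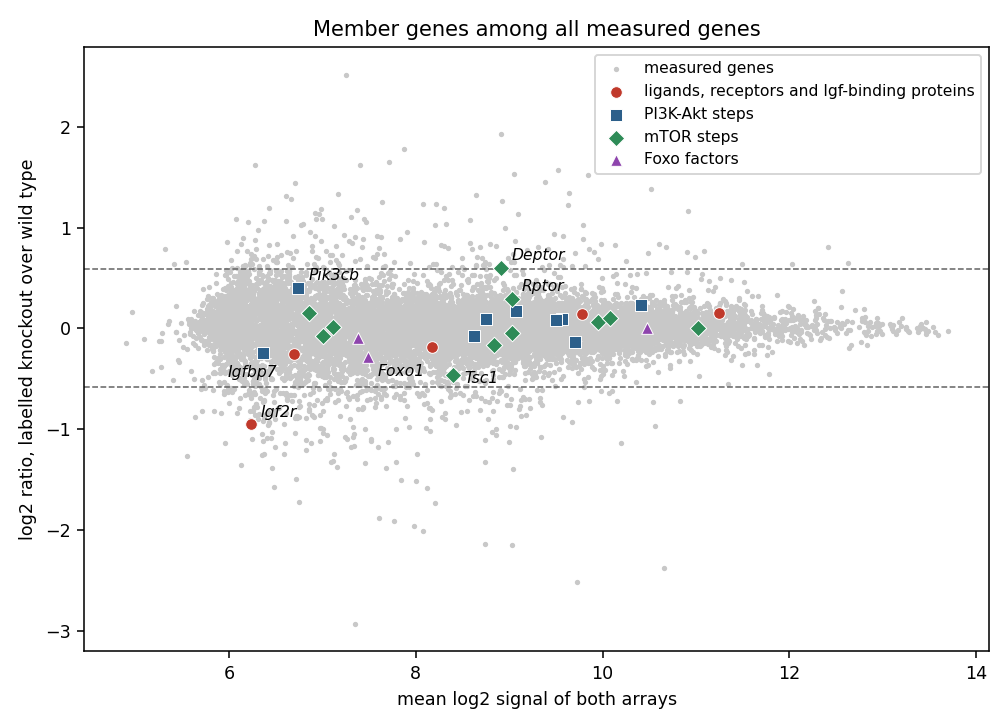
Log2 ratio of the array labelled knockout over wild type against the mean log2 signal of both arrays, for all 11547 measured genes (grey) and the 28 measured members (coloured by role), with dashed lines at 1.5-fold. Members spread over the whole range of signal and lie within the cloud of other genes, with Deptor just above the upper line and Igf2r below the lower one.

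Among ligands, receptors and binding proteins, the receptor that transmits Igf signals was present at like levels and the clearance receptor was not. Igf2r read 48.6 on the array labelled knockout, under the floor, and 117 in wild type, so it was at least 1.93-fold lower. Its second probe set read 47.9 and 111, at least 1.84-fold lower. Both probe sets therefore placed it above the floor in wild type only. The unbounded log2 ratios were -1.27 and -1.21. By its bound, Igf2r ranked 80th from the lowest of the 11547 measured genes. Igf2r is imprinted in mice and mostly expressed from the maternal copy, opposite the noncoding RNA Airn. A probe set naming both Airn and Igf2r was under the floor on both arrays (28.1 and 22.2).

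Igf1r, the receptor kinase for Igf1, read 921 on the array labelled knockout and 837 in wild type, a log2 ratio of 0.14. Its other measured probe sets gave 0.09 and 0.15, so the 3 spanned 0.05 on the log2 scale and all pointed to slightly higher signal, by less than the SD of 0.22. Insr, the insulin receptor, read 269.8 against 307 (log2 -0.19) on the 1 measured of its 3 probe sets. Igf1r and Insr thus had opposite signs, each with a ratio smaller in size than the SD of 0.22 between probe sets. Igf1, the ligand that acts through Igf1r, was under the floor on all 4 of its probe sets, with signals between 18.4 and 30.3, and has no ratio here. Much of the Igf1 in blood is made by the liver.

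Igfbp4, a secreted protein that binds Igf and limits its access to the receptor, read 2562 against 2299 (log2 0.16). Of its 6 measured probe sets, 5 read higher on the array labelled knockout, by 0.16 to 0.38, and the dimmest lower, by -0.19 (138 against 158). Igfbp7, a related secreted protein common in endothelium, gave 94.8 against 113 (log2 -0.25) on its brightest probe set and 86.7 against 100.5 (-0.21) on another. Both of its measured probe sets were slightly lower, by about 1 SD. The median log2 ratio over the 5 measured genes of this role was -0.19, and 3 of the 5 were negative.

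Markers listed for HSC and for other cell types also differed between the same arrays, beside these receptor and binding-protein values. A list is named by the cell type its genes were chosen for and does not show which cells gave the signal. Of 15 endothelial and stromal markers, 8 were measured, of which Cxcl12, Emcn, Sparc and Col1a2 were lower by 1.5-fold or more and Pdgfrb and Pecam1 higher. The largest differences were those of Cxcl12 (57.4 on the array labelled knockout against 461, at least 7.63-fold lower) and Emcn (62.5 against 176, 2.82-fold lower). Pdgfrb read 1049 against 556 (1.89-fold higher). The 2 other measured probe sets of Sparc gave log2 ratios of -1.26 and 0.25, so its probe sets disagreed in sign. The summed signal of all 15 was 2157 on the array labelled knockout and 2293 in wild type, so these opposite differences partly cancel in it. None of the 15 read 0, and the 7 not measured (Cdh5, Lepr, Col1a1, Col3a1, Dcn, Kitl and Adipoq) were under the floor on both arrays. Of the 13 HSC markers, 7 were lower by 1.5-fold or more and 0 higher (median log2 ratio -0.63), with summed signals of 11755 and 14087. Granulocyte markers went the other way, with 9 of 10 at least 1.5-fold higher and summed signals of 23137 and 13780, as did B cell markers, with 3 of 6 measured at least 1.5-fold higher and sums of 1341 and 670.4. The other lists were mixed. Of 8 measured monocyte and macrophage markers, F13a1 was higher (2.97-fold) and 0 were lower by 1.5-fold or more, with sums of 2734 and 1670 over the list. Of 7 erythroid markers, Tfrc (1.64-fold) and Sptb were higher and Car1 lower (3.90-fold), with sums of 5989 and 6145. The second measured probe set of Sptb gave a log2 ratio of only 0.008. Of 4 measured megakaryocyte markers, Itga2b was higher (1.85-fold) and Vwf (1.82-fold) and Pf4 (1.70-fold) were lower, with sums of 2077 and 1917. In RNA of many cells, fewer cells of a type and less RNA per cell cannot be told apart. The part of these markers in the values of Igf2r, Deptor and the other members was not tested.

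The PI3K and Akt steps held no member at least 1.5-fold different, and the median log2 ratio of the 9 measured was 0.09, with 6 positive and 3 negative. Irs1, the adaptor best known from muscle and fat, was under the floor on both arrays (21.6 and 20.6), whereas Irs2, the adaptor whose promoter is printed above, was just above it. Irs2 read 75.5 on the array labelled knockout and 89.3 in wild type (log2 -0.24), on its only probe set.

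The catalytic PI3K subunits did not read alike. Pik3cd, the p110 delta isoform typical of leukocytes, read 1476 against 1259.7 (log2 0.23). Of its 5 measured probe sets, 4 were higher on the array labelled knockout, up to 0.36, and 1 lower (-0.11). Pik3cb, the p110 beta isoform, read 123 against 93.1 on its only probe set (log2 0.40, 1.32-fold). This was the largest difference of the PI3K and Akt steps, and no second probe set bears on it. Pik3ca, the p110 alpha isoform, read 748 against 706 (0.08) on its brightest probe set, while its 4 other measured ones ran from -0.29 to -0.01. The median over its 5 measured probe sets was -0.19, the opposite sign, so Pik3ca has no direction in these data. Pik3r1, the p85 alpha regulatory subunit that stabilises and holds back the catalytic subunits, was lower on all 4 of its probe sets. It read 798 against 873 on the brightest (log2 -0.13), and the others gave -0.15, -0.54 and -0.19. The probe set at -0.54 read 118 against 171 and stood apart from the other 3, which lay within the SD of 0.22.

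Inpp5d encodes Ship1, the blood-cell phosphatase that removes the lipid made by PI3K. It read 779.8 against 733 (log2 0.09) and, on its second probe set, 102 against 80.8 (0.34). Pdpk1, the kinase that activates Akt, gave the widest disagreement of all members. Its brighter probe set read 444 against 416 (log2 0.10) and its other 136 against 244 (-0.84), a gap of 0.93 on the log2 scale. That second value was the only one among the 66 member probe sets past the floor on both arrays to be at least 1.5-fold lower, against 3.22% of all 18393 such probe sets. The sources used here do not say which transcripts of Pdpk1 the 2 probe sets cover. Akt1 read 571 against 507 (log2 0.17), and its other measured probe sets gave 0.14 and 0.04. Akt2, the form best known in insulin-responsive tissues, read 383 against 404 (-0.08) on its brightest probe set and 127 against 116 (0.13) on the next. The brightest probe set of Akt2 ends in _s_at and can match related transcripts, and the negative sign rests on it alone. Neither Akt gene differed beyond the SD between probe sets.

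**Figure D3:**
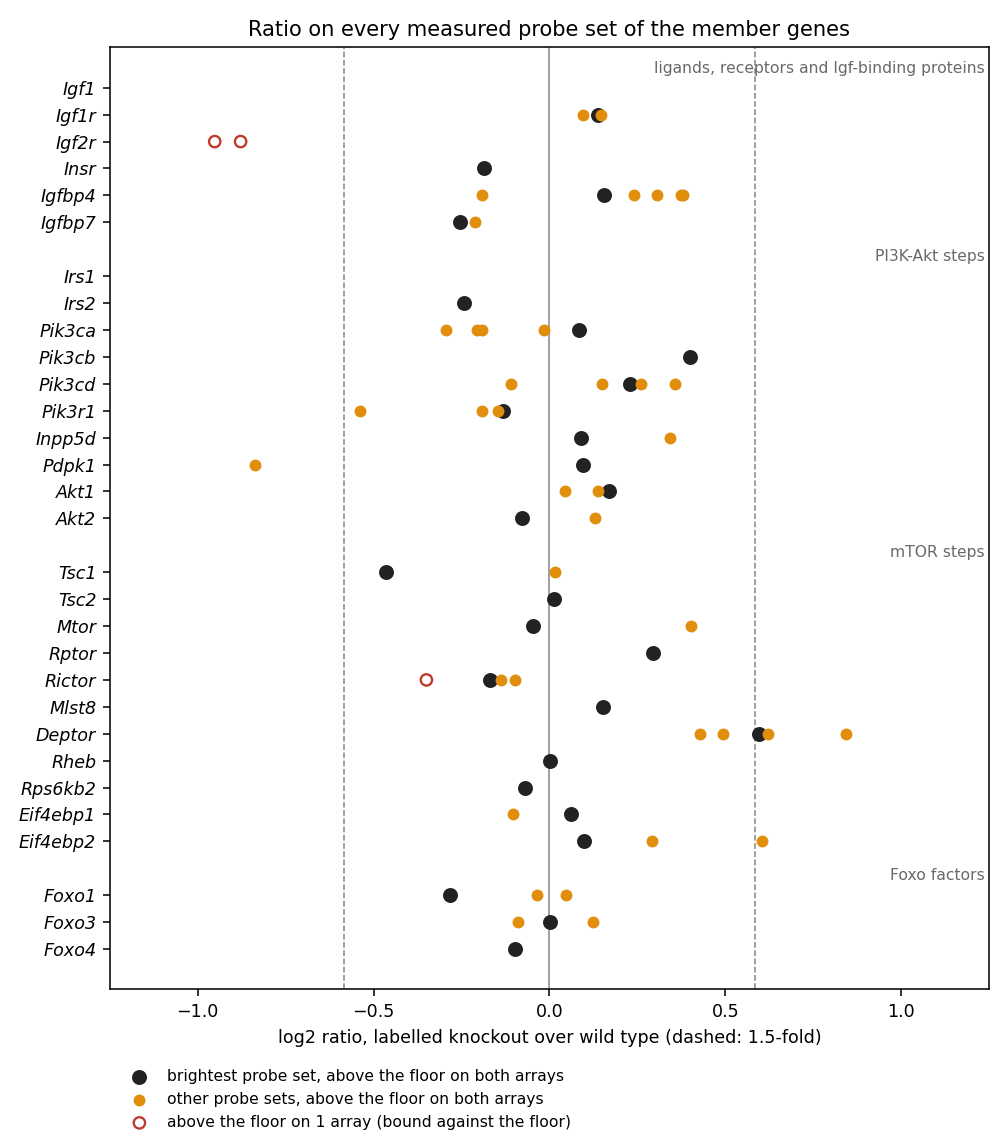
Log2 ratio of the array labelled knockout over wild type on each of the 69 member probe sets above the floor on at least 1 array, by gene and role, with the brightest probe set of a gene in black, others in orange and bounds against the floor open. The 5 points of Deptor lie together between 0.43 and 0.84 and both of Igf2r at or below -0.88, while those of Pdpk1 lie at 0.10 and -0.84.

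Among the mTOR steps, the 1 member past 1.5-fold was Deptor, which binds mTOR in both of its complexes and inhibits them. Its brightest probe set read 594 on the array labelled knockout and 393 in wild type (log2 0.60, 1.51-fold). The next 4 read 621 against 347 (log2 0.84), 474 against 336 (0.49), 309 against 201 (0.62) and 139 against 103 (0.43). All 5 measured probe sets were thus higher on the array labelled knockout, each by more than the SD of 0.22, and 3 of them by at least 1.5-fold. The remaining one was far under the floor (8.72 and 15.9). Deptor was 192nd from the highest of the 11547 measured genes. Its fold lay close to the 1.5-fold limit, and with a pseudocount of 1 floor in place of the floor its log2 ratio was 0.53, below that limit.

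The other subunits of the complexes differed little. Mtor, the kinase itself, read 513 against 529.7 (log2 -0.05) on its brightest probe set and 153 against 116 (0.40) on the next, so its probe sets disagreed in sign. Its remaining probe set was under the floor on both arrays (60.1 and 27.3). Rptor, the defining subunit of mTOR complex 1, read 579 against 473 (log2 0.29, 1.23-fold) on its 1 measured probe set. Rictor, the defining subunit of mTOR complex 2, read 431 against 484 (-0.17), and its 4 measured probe sets were all lower, from -0.10 down to a bound of -0.35. Rptor and Rictor therefore had opposite signs, the first just past the SD of 0.22 and the second within it on its brightest probe set. Mlst8, a subunit of both complexes, read 122 against 109.97 (0.15).

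Upstream of mTOR complex 1, Tsc1 was the member next lowest after Igf2r. Tsc1 encodes hamartin, which stabilises Tsc2 in the complex that switches Rheb off. It read 286 on the array labelled knockout and 395 in wild type (log2 -0.46, 1.38-fold), but its second measured probe set read 97.6 and 96.6 (0.01). The difference thus rests on 1 of its 2 measured probe sets. Its partner Tsc2 read 139 against 137 (0.01), and Rheb 2087 against 2083 (0.0024), each on its only probe set. Both read nearly the same on the arrays.

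Downstream of mTOR complex 1, Eif4ebp1 and Eif4ebp2 encode repressors that hold the cap-binding protein Eif4e until mTOR phosphorylates them. Eif4ebp1 read 1011 against 969 (log2 0.06) and, on its second measured probe set, 641 against 689 (-0.10). Eif4ebp2 read 1121 against 1047 (0.10), 218 against 178 (0.29) and 108 against 71.3 (0.60). All 3 measured probe sets of Eif4ebp2 were higher on the array labelled knockout, with the largest ratio on the dimmest of them. Together with 3 of Deptor, that one made up the 4 of 66 member probe sets at least 1.5-fold higher, against 1.52% of all 18393. These probe sets share 2 genes and are not independent. Rps6kb2, an S6 kinase, read 125 against 131 (-0.07) on its only probe set. The median of the 11 measured mTOR genes was 0.01, with 7 positive and 4 negative.

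The Foxo factors, which Akt holds in the cytoplasm, were close to equal on the arrays. Foxo3, the form most studied in HSC, read 1426 on the array labelled knockout and 1425 in wild type, and its other probe sets gave -0.09 and 0.12. Foxo1 read 163 against 198 (log2 -0.28) on its brightest probe set, which ends in _s_at and can match related transcripts. Its 2 other measured probe sets gave -0.04 and 0.05, so the lower signal rests on that probe set alone. Foxo4 read 161 against 173 (-0.10). The 3 Foxo genes had a median of -0.10.

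Probe sets of 1 gene are the only repeated measurement here. In 18 members, 2 or more probe sets passed the floor on each array, and 8 of these had all of them pointing the same way, 5 higher (Igf1r, Inpp5d, Akt1, Deptor and Eif4ebp2) and 3 lower (Igfbp7, Pik3r1 and Rictor). The other 10 held both signs. Over all 4632 genes with such probe sets, 52.4% pointed one way, beside 8 of 18 here. Full agreement is harder to reach with more probe sets per gene, up to 6 in these members. That number was not matched between the members and all genes, so the shares are not strictly comparable. Igf2r, with both probe sets above the floor in wild type only, is outside the count of 18.

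Further genes of the pathway were listed by role and described by the same rule. Of 130 listed, 107 were measured, 1 of them higher and 2 lower by 1.5-fold or more, and their median was 0.03 on the log2 scale. Over all measured genes, 1.71% were higher and 2.63% lower by that size. Among ligands, binding proteins and adaptors outside the members, 15 were measured (median 0.06), and 1 was lower. That was Grb10, an adaptor that binds the insulin and Igf1 receptors and restrains them, which read 152 against 433 (log2 -1.52, 2.86-fold). Among further PI3K, phosphatase and Akt genes, 20 were measured (median 0.0050), and 1 was lower. Inppl1, which encodes Ship2, a phosphatase of the same lipid as Ship1, read 80.7 against 128 (log2 -0.66, 1.59-fold), on 1 measured probe set.

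None of the 35 measured genes of the mTOR complexes, nutrient sensing and AMPK was at least 1.5-fold different. Their median was -0.05, with 23 negative and 12 positive, beside 50.4% positive over all measured genes. The leading ones were Castor1, an arginine sensor (88.8 against 122, log2 -0.46), Sesn3, a sestrin that restrains mTOR complex 1 (436 against 595, -0.45, and -0.06 on its second measured probe set), and Tbc1d7, a further subunit of the Tsc complex (156 against 192, -0.30). The 16 measured translation and autophagy effectors also held none, and 12 were positive (median 0.07). Their leading genes were Pdcd4, an inhibitor of translation initiation (log2 0.37), Eef2k, the kinase that slows elongation (-0.24), and Larp1, which binds mRNAs of ribosomal proteins (0.23). Of 23 measured Foxo target genes, 1 was higher. Cdkn1a, the p21 cell cycle inhibitor, which p53 also induces, read 349.8 against 229 (log2 0.61, 1.53-fold) and 0.40 on its second probe set, and the median of the list was -0.0085, with 11 positive and 12 negative. Sestrin genes Sesn1 and Sesn3 stand in both the nutrient-sensing and the Foxo target list.

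**Figure D4:**
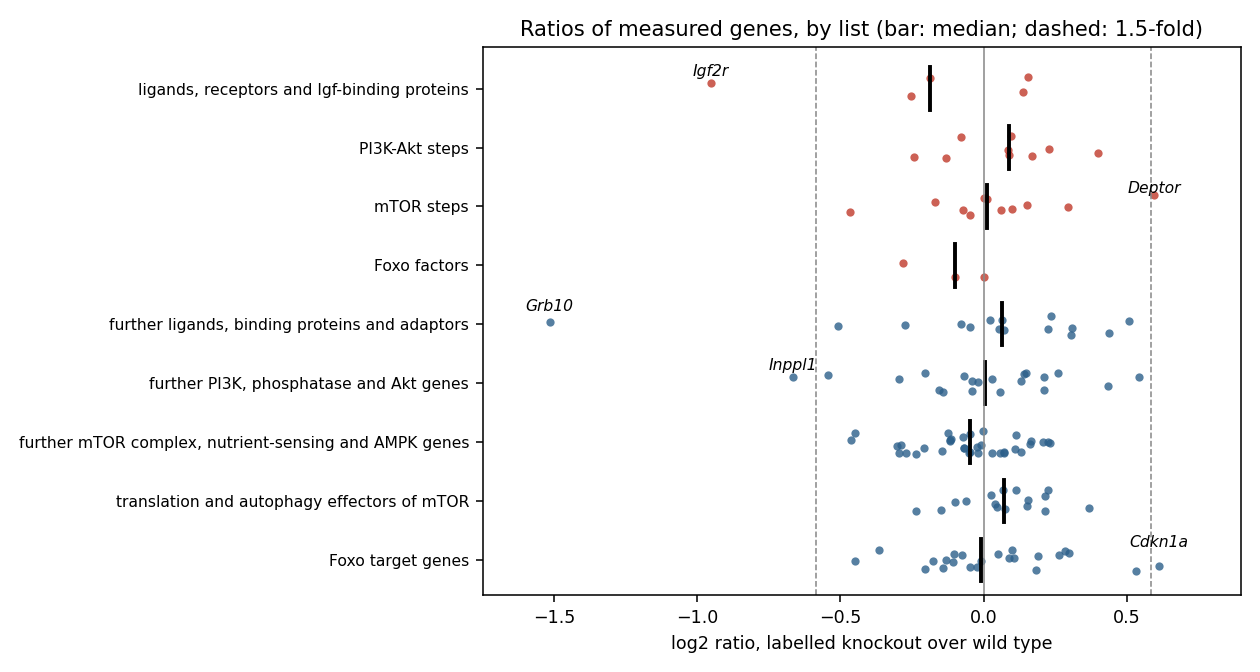
Log2 ratio of each measured gene of the array labelled knockout over wild type, for the members by role (red) and the further pathway lists (blue), with the median of each list as a bar and dashed lines at 1.5-fold. All medians lie between -0.19 and 0.09, and the 5 genes past 1.5-fold (Igf2r, Deptor, Grb10, Inppl1 and Cdkn1a) are named.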

How the data were processed

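The authors deposited a table of signal intensity on a linear scale, with MAS5 as its tool per the submitters' processing notes. The sources used here do not give its version, scaling target or detection calls. The arrays' median signals were 60.7 (labelled knockout) and 60.8 (wild type), so no further scaling was applied before taking log2. Of 45037 probe sets, 34945 named 1 gene, 932 several and 9160 none in the platform annotation. All 95 member probe sets carried the Entrez identifier of the RefSeq gene. The 4 probe sets named Pdk1, a synonym of Pdpk1, belong to another gene by that identifier and were left out. Depth on arrays is not counted, and their number limits the precision.

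Values under the floor were raised to it. The named genes were all members, Sirt6, and of each further list the genes at least 1.5-fold different or else the 3 with the largest ratio; markers were named where their list is described. Members, lists and thresholds were chosen with earlier results of these data known. Alternatives were other scalings (quantile, median centring, loess with span 0.3), no floor, one at percentile 25 or 75, a pseudocount, the median over probe sets, and leaving out _x_at and _s_at probe sets. The procedure was tested on simulated data, with planted changes well past the 1.5-fold limit in genes well above the floor. That test does not bear on differences close to the limit or on genes near the floor. Python 3.11.15, numpy 2.4.6, pandas 2.3.3, statsmodels 0.14.6 and matplotlib 3.10.9 were used.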

Additional observations from a re-analysis of the deposited data

Results flagged for a closer look

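A probe set that names both Gm38485 and Foxo3, and so was left out of the values above, read 79.9 on the array labelled knockout, above the floor, and 55.6 in wild type, below it. It was singled out by a rule that kept only probe sets above the floor on the array labelled knockout and not in wild type. Its direction was therefore fixed by that rule and is not a result. Its log2 ratio as deposited was 0.52, under the 1.5-fold limit of 0.58.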

How the results depend on the processing

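With 1 array per genotype, no result has a biological error, and a move was judged against the probe-set SD of 0.22. Of 243 member ratios recomputed under the alternatives, 234 moved by less than that. Many of these could not move. Lowering or removing the floor leaves unchanged any member above it on both arrays, as 27 of the 28 were. Leaving out _x_at and _s_at probe sets changes only members whose brightest probe set is of that kind. The count of 234 is therefore no measure of how robust the ratios are. At percentile 75, Foxo1, Foxo4, Igf2r, Igfbp7, Irs2, Mlst8, Pik3cb, Rps6kb2 and Tsc2 were not measured and have no ratio. In the ratios computed, 21 members kept their sign, and Akt2, Eif4ebp1, Foxo3, Mtor, Pdpk1, Pik3ca and Rheb did not. Deptor ranged from 0.53 to 0.62 and Igf2r from -1.27 to -0.70, both with 1 sign. Taking 2-fold as the size left 0 members higher and 0 lower, and the smaller size of log2 0.32 gave 2 and 2. The 0 lower at 2-fold depends on the floor, because the 1.93-fold of Igf2r is a bound and its fold without the floor was 2.41. With a pseudocount of 1 floor 0 members were at least 1.5-fold higher, and with the floor at percentile 75 0 were lower. That floor left 3 ligands, receptors and binding proteins, whose median became 0.14. Among further PI3K, phosphatase and Akt genes, 2 were past 1.5-fold with quantile normalization, the floor at percentile 25 and no floor, and 0 with the floor at percentile 75 and the pseudocount. Among Foxo targets, 0 were with the floor at percentile 75, the pseudocount and the median over probe sets. The other counts and medians of the members and pathway lists stayed within 1.5 times or within the SD. For medians that limit is loose, because the SD is that of single probe-set ratios. Within it, the median of the Foxo targets ran from -0.02 to 0.05. That of the further PI3K, phosphatase and Akt genes ran from -0.03 to 0.07, so both changed sign. Without a floor, the median of the further ligands, binding proteins and adaptors was 0.26, and that of the member ligands, receptors and binding proteins -0.05. Over all measured genes, the counts past 1.5-fold moved from 198 higher and 304 lower to 461 and 462 with the floor at percentile 25, 986 and 693 with no floor, 83 and 93 at percentile 75 and 114 and 161 with the pseudocount. No paired analysis was possible because each genotype has 1 array.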
